A study of Mus musculus with 7 samples.

Results

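The interferon-induced transmembrane (Ifitm) genes encode small membrane proteins, and 5 of them, Ifitm1, Ifitm2, Ifitm3, Ifitm6 and Ifitm10, were followed by RNA sequencing of haematopoietic stem cells (HSCs) from mice with and without a colon tumour. The 5 were taken by gene name from a table of 28786 genes. Ifitm6 was chosen by its difference in counts between the MC38 and control columns of these data, so its values are given as a description and carry no test. The other 4 belong by family name, and Ifitm5 and Ifitm7, the remaining Ifitm genes of the table, are given beside them. The group labelled MC38 was 4 libraries from C57BL/6J mice with MC38 colon cancer, a transplantable mouse colon carcinoma line, and the control group was 3 libraries, from mice that the series calls normal. The study set out to learn how a tumour biases HSCs towards myeloid cells. Mice were 6 to 8 weeks old, and each library was made from 1500 cells sorted as HSCs from the marrow of femora and tibiae, with 12 cycles of cDNA amplification. The labels name no transgene or treatment in either group, and give no sort gate. They also leave unsaid whether each library is its own animal, and p-values therefore reflect library-to-library spread that may be partly or wholly technical.

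Ifitm proteins carry a CD225 domain and sit in the plasma membrane and in endosomes, where Ifitm1, Ifitm2 and Ifitm3 are known for blocking the fusion of enveloped viruses with the cell. Their genes are transcribed more after type I interferon or interferon gamma, which act through STAT and IRF factors, and stem cells of several tissues also transcribe them without any interferon signal. Ifitm6 transcripts are known from mouse myeloid cells, Ifitm5 is a gene of bone-forming cells, and Ifitm10 is the most divergent member and is not known as an interferon target.

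The libraries held between 13368238 and 17657037 counts in MC38 and 12131546 and 12306066 counts in the 2 control libraries used. Control column 3 held 8625380 counts and was left out, because it is not an independent library. Its ratio to the sum of the other controls lay within 10% of the median ratio for 99.6% of 9692 genes. These genes had at least 200 counts in that sum. For the MC38 libraries over the same sum the share was 20.3% to 29.5%. Within MC38 it was 23.6% for replicate 3 over replicates 1 and 2, and 42.9% for replicate 2 over replicates 1 and 4. All 18 HSC markers on a list for that cell type were detected and tested, with 0 called by edgeR (2 at an unadjusted p under 0.05, 2 called by DESeq2, 0 by limma-voom) and a summed level of 2274 to 2476 CPM in MC38 and 2396 to 2552 CPM in control. CPM are counts scaled to one common library size, after normalisation by the trimmed mean of M values (TMM). Transcripts of mature cells were present in both groups too, and a bulk library cannot tell fewer cells of a type from less RNA per cell. Of 14226 genes tested with edgeR, 148 (1.04%) were higher and 81 (0.569%) lower in MC38 at an adjusted p under 0.05. Groups that did not overlap were common, with 14.0% of tested genes higher and 15.0% lower in every MC38 library than in both controls. An unadjusted p under 0.05 was found for 17.5% of tested genes, the share against which the counts at that level for the HSC markers and every other list stand. DESeq2 called more of the 14226 genes, 626 higher and 396 lower, and limma-voom called 99 higher and 82 lower. Counts of list genes called by these tools stand against those numbers.

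A cluster of 69 kb on mouse chromosome 7 holds Ifitm5, Ifitm2, Ifitm1, Ifitm3 and Ifitm6 in that order, and the promoters of the 4 abundant ones are shown because interferon acts on this family through promoter elements. Sequences are the RefSeq windows of 300 bases on GRCm38.p6, the assembly of the mm10 build of the counts, from 250 bases before a start site to 50 after it, 5′ to 3′ on the strand of the gene. Capitals mark matches to the core of the interferon-stimulated response element (ISRE: GAAA, any 2 bases, GAAA) or to the gamma-activated site (GAS, TTCNNNGAA), searched on both strands.
Ifitm1 (chr7:140967826-140968125, plus strand): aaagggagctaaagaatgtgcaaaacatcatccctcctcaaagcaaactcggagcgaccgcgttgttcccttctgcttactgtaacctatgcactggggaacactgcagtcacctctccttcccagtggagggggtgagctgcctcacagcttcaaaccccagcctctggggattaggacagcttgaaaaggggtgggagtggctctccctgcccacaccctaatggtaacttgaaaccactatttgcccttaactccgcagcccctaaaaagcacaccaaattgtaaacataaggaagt
Ifitm2 (chr7:140955912-140956211, minus strand): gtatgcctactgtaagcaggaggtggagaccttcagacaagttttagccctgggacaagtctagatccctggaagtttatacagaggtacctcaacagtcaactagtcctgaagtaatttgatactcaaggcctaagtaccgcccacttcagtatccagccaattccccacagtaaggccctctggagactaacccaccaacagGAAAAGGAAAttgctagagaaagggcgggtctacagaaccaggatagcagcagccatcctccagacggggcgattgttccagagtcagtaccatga
Ifitm3 (chr7:141010695-141010994, minus strand): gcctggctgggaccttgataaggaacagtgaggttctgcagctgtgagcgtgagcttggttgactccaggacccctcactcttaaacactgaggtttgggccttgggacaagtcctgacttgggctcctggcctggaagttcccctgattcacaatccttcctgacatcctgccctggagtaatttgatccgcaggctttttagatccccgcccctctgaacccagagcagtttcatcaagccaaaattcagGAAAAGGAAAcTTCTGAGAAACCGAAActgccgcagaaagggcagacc
Ifitm6 (chr7:141016843-141017142, minus strand): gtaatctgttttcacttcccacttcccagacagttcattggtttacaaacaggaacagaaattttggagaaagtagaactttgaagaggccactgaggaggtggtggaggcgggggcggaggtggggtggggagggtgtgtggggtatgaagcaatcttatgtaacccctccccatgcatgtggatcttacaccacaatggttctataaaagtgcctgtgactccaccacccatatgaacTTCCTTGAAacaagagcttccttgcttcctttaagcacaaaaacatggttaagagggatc

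Ifitm2 had 1 ISRE match at positions -46 to -37 from the start site, and Ifitm3 had 2, at 3 to 12 and at 20 to 29. A GAS match in Ifitm3, at 14 to 22, shares its last bases with the second ISRE match, so the capitals run together there. Ifitm6 had no ISRE match and 1 GAS match, at -10 to -2, and the window of Ifitm1 held neither. Of 32851 promoter windows of this length, 3.44% held the ISRE core and 8.3% the GAS. Neither motif was found in the windows of Ifitm5, Ifitm7 or the 3 start sites of Ifitm10. The ETS core of PU.1 sites, GAGGAA, was found on either strand in 28.3% of windows and, among the Ifitm genes, in 1 of the Ifitm10 windows. A match describes these letters only. GENCODE places the 5′ ends of Ifitm1 and Ifitm6 further upstream, at 140967221 and 141017924. Both lie outside the windows shown, so sequence around those ends was not searched.

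Ifitm6 (ENSMUSG00000059108, chr7:141015699-141017924, minus strand) was the member with the largest difference. It stood at 310.4, 315.3, 330.9 and 309.3 CPM in MC38 libraries 1 to 4, against 78.4 and 65.2 CPM in control libraries 1 and 2. All MC38 libraries lay close together, far above both controls. The means were 316.5 ± 9.99 CPM in MC38 and 71.8 ± 9.32 CPM in control (SD, n = 4 and 2), 4.41-fold higher in MC38 (log2 fold change 2.14, SE 0.13). These are the values Ifitm6 was picked for, so its SE is a description and no test. Its reads numbered 4180 to 5947 in MC38 and 933 and 790 in control. Among the genes tested, 435 had a log2 fold change at least this large, Ifitm6 included, and it was the only one of them with a mean of at least 234.9 CPM, its own mean over the 6 libraries.

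**Figure D1:**
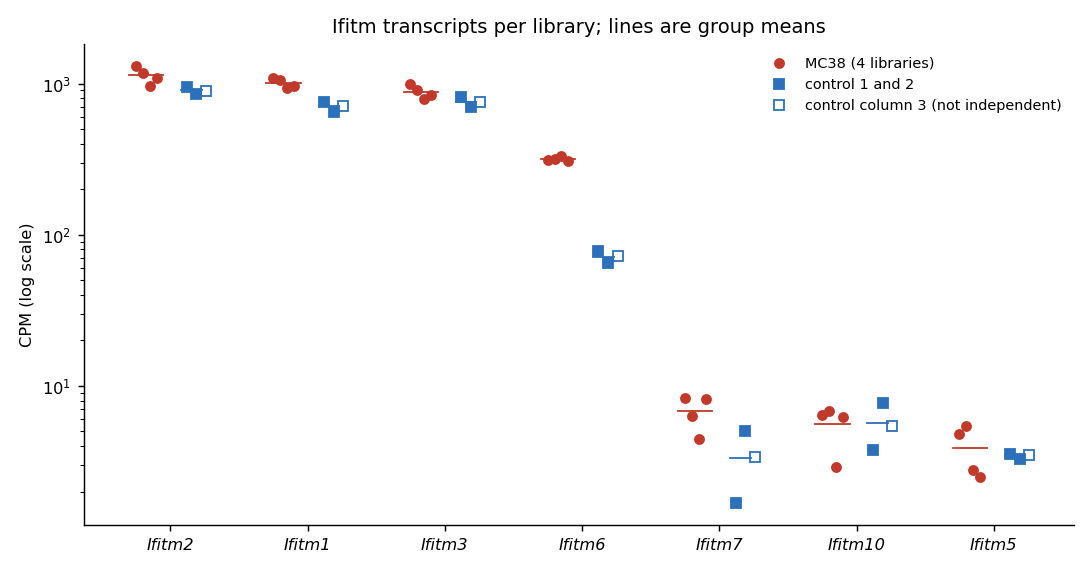
CPM of each Ifitm gene on a log axis, with MC38 libraries as red circles, control libraries 1 and 2 as filled blue squares, control column 3 as open squares and group means as lines. Ifitm6 lies between 309.3 and 330.9 CPM in MC38 and at 78.4 and 65.2 CPM in control, while Ifitm3 and the 3 genes below 10 CPM overlap between the groups.

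Ifitm1, Ifitm2 and Ifitm3, the antiviral members, were abundant in both groups and differed far less, and none passed the test. Ifitm1 (ENSMUSG00000025491, chr7:140967221-140969825, plus strand), whose human counterpart acts mainly at the cell surface, stood at 1082, 1062, 930.2 and 963.7 CPM in MC38 libraries 1 to 4, against 759.6 and 653.2 CPM in control. Every MC38 library was above both controls, and the nearest pair was 930.2 and 759.6 CPM. The means of 1009 ± 73.8 CPM in MC38 and 706.4 ± 75.2 CPM in control (SD, n = 4 and 2) gave a log2 fold change of 0.51 (SE 0.12, 95% interval 0.25 to 0.78, edgeR adjusted p = 0.0672). The call depended on the setting: the adjusted p for Ifitm1 ran from 0.000663 with DESeq2 to 0.246 without control replicate 2, and it was under the threshold in 5 of 14 alternatives.

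Ifitm2 (ENSMUSG00000060591, chr7:140954837-140955987, minus strand), a member of endosomal membranes, stood at 1310, 1173, 961.1 and 1090 CPM in MC38, against 949.1 and 852.8 CPM in control. The groups did not overlap, but MC38 replicate 3, the lowest, was close to control replicate 1. The log2 fold change was 0.33 (SE 0.14, 95% interval 0.02 to 0.64, edgeR adjusted p = 0.252). Ifitm3 (ENSMUSG00000025492, chr7:141009586-141010770, minus strand), the member best known for restricting influenza virus in late endosomes, stood at 997.1, 900.9, 788.7 and 838.2 CPM in MC38, against 819.1 and 697.2 CPM in control. MC38 replicate 3 lay between the controls, and the log2 fold change was 0.22 (SE 0.13, 95% interval -0.07 to 0.51, edgeR adjusted p = 0.426). The interval of Ifitm3 ends below a log2 fold change of 1, so a doubling of its level lies outside it.

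Ifitm10 (ENSMUSG00000045777, chr7:142325837-142373753, minus strand) lies outside the cluster and was scarce. It stood at 6.46, 6.84, 2.89 and 6.21 CPM in MC38, against 3.78 and 7.68 CPM in control, so that the control libraries spanned nearly the whole range of the MC38 ones. The log2 fold change was -0.03 (SE 0.51, 95% interval -1.18 to 1.11, edgeR adjusted p = 0.981), with 52 to 100 reads in MC38 and 45 and 93 in control. A change of 2-fold in either direction was within the interval, and the libraries of a group differed widely. The sign of the difference turned without control replicate 2 (log2 fold change 0.57) and without MC38 replicate 3 (0.18).

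Ifitm5 and Ifitm7, outside the 5, were as low as Ifitm10. Ifitm5 averaged 3.87 ± 1.44 CPM in MC38 and 3.42 ± 0.16 CPM in control (SD, n = 4 and 2, log2 fold change 0.18, edgeR adjusted p = 0.911). Ifitm7, on chromosome 16, averaged 6.80 ± 1.80 CPM in MC38 and 3.36 ± 2.37 CPM in control (SD, n = 4 and 2, log2 fold change 1.02, SE 0.55, edgeR adjusted p = 0.381). Its controls stood at 1.68 and 5.04 CPM and overlapped with MC38, and its log2 fold change was 0.43 without control replicate 1 and 2.01 without control replicate 2. Ifitm7 shares 259 exonic bases with 2900011O08Rik on the opposite strand, and without a stated strand setting its reads are uncertain.

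Of the 4 members other than Ifitm6, 0 were called by edgeR, where 1.61% of all tested genes were called in either direction. At an unadjusted p under 0.05 there were 2, Ifitm1 and Ifitm2, where 17.5% of all tested genes reached that level, and DESeq2 called 1, Ifitm1, while limma-voom called 0. Their log2 fold changes ran from -0.03 to 0.51 with a median of 0.27, beside a median of 0.01 over all tested genes. Of the 5 members, 3 (Ifitm1, Ifitm2 and Ifitm6) were higher without overlap, a pattern present in 14.0% of tested genes. Ifitm6 is counted there although it was picked for this difference.

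**Figure D2:**
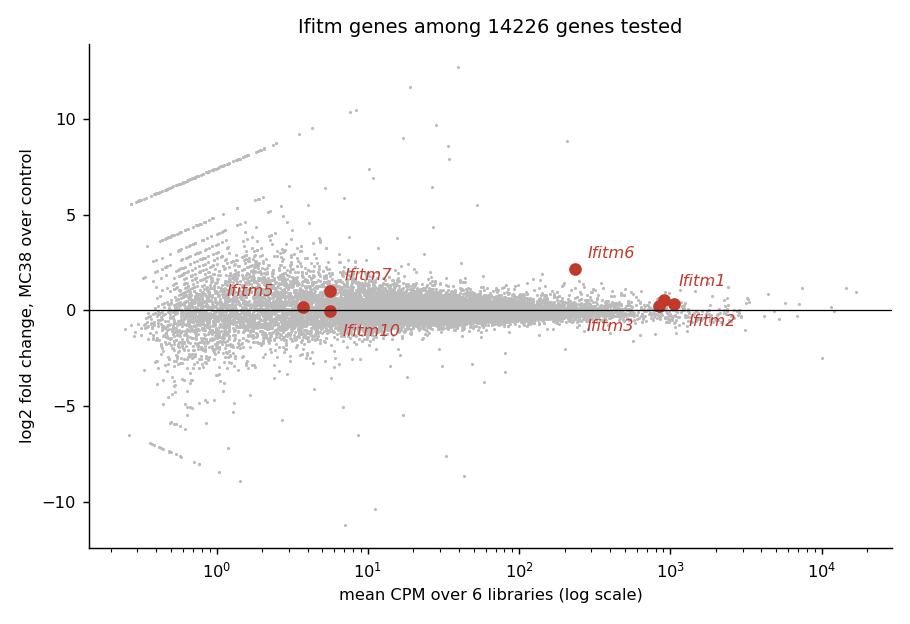
Log2 fold change of MC38 over control against mean CPM over 6 libraries (log axis) for the 14226 genes tested, in grey, with the 7 Ifitm genes in red. Ifitm6, at 2.14 and 234.9 CPM, lies above the cloud of genes of similar level, while Ifitm1, Ifitm2 and Ifitm3 lie near its edge or inside it.

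Libraries differed among themselves in which members they held more of. MC38 replicate 3 had the lowest CPM of Ifitm1, Ifitm2, Ifitm3, Ifitm7 and Ifitm10 of the MC38 libraries and the highest of Ifitm6. Over the 4 MC38 libraries the coefficient of variation was 3.16% for Ifitm6, 7.31% for Ifitm1, 10.2% for Ifitm3 and 12.9% for Ifitm2. The scarce members varied more, with 26.4% for Ifitm7, 32.5% for Ifitm10 and 37.1% for Ifitm5. Control replicate 2 was below control replicate 1 for Ifitm1, Ifitm2, Ifitm3 and Ifitm6.

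Ratios between members within a library do not depend on scaling between libraries, and the ratio of Ifitm1 to Ifitm3 was higher in every MC38 library than in both controls. The ratio of Ifitm1 to Ifitm3 reads was 1.08, 1.18, 1.18 and 1.15 in MC38 libraries 1 to 4, against 0.927 and 0.937 in control. Control column 3 stood at 0.942. The ratio of Ifitm1 to Ifitm2 was 0.826, 0.905, 0.968 and 0.884 in MC38, against 0.800 and 0.766 in control. The ratio of Ifitm2 to Ifitm3, at 1.31, 1.30, 1.22 and 1.30 in MC38 and 1.16 and 1.22 in control, overlapped. The log2 difference was 0.30 for Ifitm1 over Ifitm3 (two-sided exact permutation p = 0.0667 over 15 splits, the smallest these allow), 0.19 for Ifitm1 over Ifitm2 (exact permutation p = 0.133) and 0.11 for Ifitm2 over Ifitm3 (exact permutation p = 0.133). With adjustment over the 3 ratios each exact permutation p was 0.133, and this design cannot reach 0.05.

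**Figure D3:**
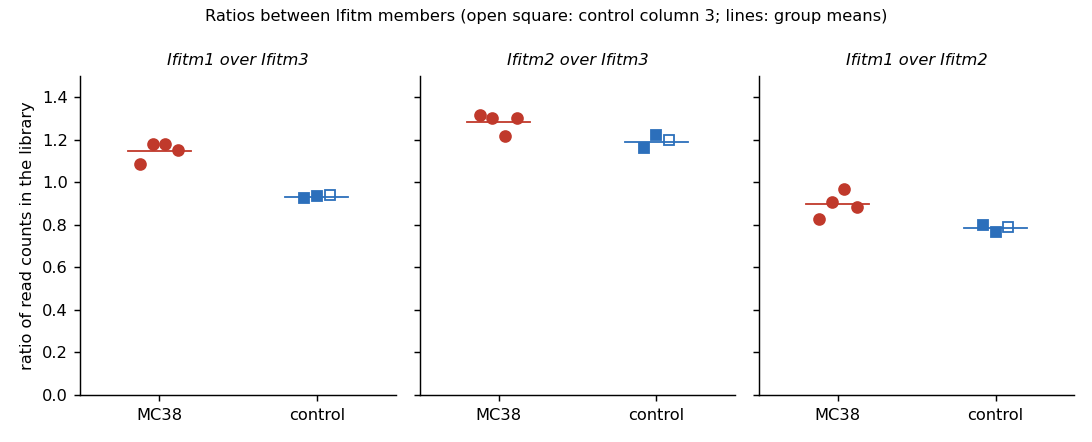
Ratio of read counts between pairs of Ifitm members in each library, with MC38 as red circles, control libraries 1 and 2 as filled blue squares, control column 3 as open squares and group means as lines. Ifitm1 over Ifitm3 averages 1.15 in MC38 and 0.932 in control without overlap, and Ifitm2 over Ifitm3 overlaps.

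The members resemble each other in sequence, which matters for telling their reads apart, but few stretches of 50 bases were shared. The aligned parts of the longest coding transcripts were 83.3% identical between Ifitm2 and Ifitm3 over 365 bases and 81.6% between Ifitm1 and Ifitm3 over 299 bases. Ifitm7, outside the 5, was 87.3% identical to Ifitm1 over 521 bases. Between Ifitm6 and Ifitm3 the best match covered 138 bases at 78.3% identity. Of the 50-base words in the transcripts of a gene, 5.56% of those of Ifitm3, 3.3% of Ifitm2 and 1.42% of Ifitm1 also occurred in another Ifitm gene. None of the words of Ifitm5, Ifitm6, Ifitm7 or Ifitm10 did. The read length is not given in the sources used here. Gm45717 shares 268 exonic bases with Ifitm2, and Gm49369 shares 215 with Ifitm10, and neither is a gene of the count table.

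Levels of different members were compared per length, as TPM, the counts divided by annotated exon length and scaled to one common total per library. Ifitm2 was the highest, at 3320 ± 274 TPM in MC38 and 2720 ± 142 TPM in control (SD, n = 4 and 2). Ifitm3 followed at 2496 ± 136 TPM in MC38 and 2210 ± 200 TPM in control, and Ifitm1 at 1774 ± 50.1 TPM in MC38 and 1276 ± 106 TPM in control. Ifitm6 came next, at 674.4 ± 49.99 TPM in MC38 and 156.7 ± 16.7 TPM in control. No 2 of these 4 overlapped within a group. The remaining genes averaged below 10 TPM in both groups. Ifitm5 (9.64 ± 3.24 TPM) and Ifitm7 (5.49 ± 1.33 TPM) overlapped within MC38, where Ifitm10 stood at 2.23 ± 0.68 TPM, and Ifitm7 and Ifitm10 overlapped within control. With the length of the longest transcript in place of all exons the order in MC38 was the same.

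Read counts of the 7 Ifitm genes together made up 0.338 ± 0.027% of a library in MC38 and 0.241 ± 0.022% in control (SD, n = 4 and 2). Ifitm6 supplied 8.35%, 9.09%, 10.9% and 9.61% of these reads in MC38 libraries 1 to 4, against 3.00% and 2.85% in control, as follows from the difference it was picked for. Ifitm2 supplied 33.7 ± 1.41% in MC38 and 36.8 ± 0.73% in control.

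In both groups the TPM of Ifitm1, Ifitm2 and Ifitm3 each exceeded that of all 40 genes on a list of type I interferon-stimulated genes. The highest of those was Bst2, which tethers budding virus to the cell, at 192.3 ± 3.44 TPM in MC38 and 202.6 ± 11.7 TPM in control. Ifitm6 exceeded all 40 in MC38 and 38 of 40 in control. Among 27 interferon gamma response genes only B2m, the light chain of MHC class I, was above Ifitm1, Ifitm2 and Ifitm3 in either group. These levels are a description of transcripts per length and were not tested.

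Of the 40 type I interferon-stimulated genes tested, 0 were called in either direction by edgeR (7 at an unadjusted p under 0.05, 1 called by DESeq2, 0 by limma-voom), and the median log2 fold change was 0.04, beside 0.01 over all genes. The 7 are a share of the list equal to the 17.5% of all tested genes at that level. Fold changes were above 0 for 21 genes and below 0 for 19, and the summed level was 1362 to 1491 CPM in MC38 and 1322 to 1338 CPM in control. The smallest p-values belonged to Samd9l, a translation inhibitor that restricts viruses (log2 fold change 1.03, edgeR adjusted p = 0.16), Stat2, a factor of the type I signal (0.66, adjusted p = 0.185), and Oasl2, an antiviral protein of the OAS family (0.51, adjusted p = 0.196).

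Of the 27 interferon gamma response genes tested, 1 rose and 0 fell in edgeR, beside 1.04% and 0.569% of all tested genes. The median log2 fold change was 0.26. Serpina3g, a protease inhibitor, stood at 397.9, 364.5, 366.5 and 378.4 CPM in MC38, against 178.5 and 166.9 CPM in control (log2 fold change 1.13, SE 0.11, edgeR adjusted p = 0.000946). Its MC38 libraries lay in a narrow band above both controls. So did those of Ngp, a neutrophil marker, at 8967 to 9280 CPM in MC38, against 4214 and 3968 CPM in control. Ly6a, which encodes Sca-1, had a log2 fold change of 0.65 (edgeR adjusted p = 0.0522), and Ciita, the activator of MHC class II genes, one of 1.85, with 7.32 to 14.4 CPM in MC38 and 1.85 and 3.63 CPM in control (edgeR adjusted p = 0.0984). DESeq2 called 6 of the 27 higher and limma-voom called 1. At an unadjusted p under 0.05 there were 8, beside 17.5% of all tested genes. Without overlap 9 were higher and 1 lower, beside 14.0% and 15.0% of all tested genes.

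Among 20 genes of interferon receptors and signalling, 1 rose and 0 fell in edgeR, beside 1.04% and 0.569% of all tested genes. The list median was 0.29. DESeq2 called 2 higher and limma-voom 0, and 4 had an unadjusted p under 0.05, beside 17.5% of all tested genes. Of the 20, 9 were higher and 2 lower without overlap, beside 14.0% and 15.0% of all tested genes. Ifngr1, the ligand-binding chain of the interferon gamma receptor, stood at 173.4, 144.5, 173.6 and 170.5 CPM in MC38, against 107.2 and 102.9 CPM in control (log2 fold change 0.66, SE 0.13, edgeR adjusted p = 0.0405). This call did not hold under limma-voom (adjusted p = 0.0571). Leaving out a library also ended it, with an adjusted p of 0.0696 for MC38 replicate 2, 0.142 for MC38 replicate 4, 0.22 for control replicate 1 and 0.157 for control replicate 2. Il10rb, a chain shared by the receptors of interferon lambda and interleukin 10, had a log2 fold change of 0.91 (edgeR adjusted p = 0.0667), and Ifnlr1, its partner for interferon lambda, one of 1.42 (adjusted p = 0.181).

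Genes that modify or bind Ifitm proteins gave 0 calls among 14 by edgeR (3 at an unadjusted p under 0.05, 1 by DESeq2, 0 by limma-voom), with a list median of -0.01. Cd9, a tetraspanin, averaged 411.6 ± 22.3 CPM in MC38 and 298.3 ± 46.2 CPM in control (SD, n = 4 and 2, edgeR adjusted p = 0.102). Abhd16a, a depalmitoylase, averaged 61.3 ± 4.52 CPM in MC38 and 85.5 ± 16.9 CPM in control (edgeR adjusted p = 0.173), and Setd7, a methyltransferase that acts on human IFITM3, 48.2 ± 6.42 CPM in MC38 and 34.0 ± 8.82 CPM in control (adjusted p = 0.262). Of 7 other genes with a CD225 domain, only Prrt1 (log2 fold change 1.17, edgeR adjusted p = 0.585) and Tmem91 (0.07, adjusted p = 0.958) had enough counts to be tested, and the list summed to 5.62 to 12.8 CPM in MC38 and 5.63 to 8.83 CPM in control.

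Among 13 tested genes of endosomes and cholesterol handling, the compartment in which Ifitm3 acts, 0 were called by edgeR, 2 had an unadjusted p under 0.05, and DESeq2 and limma-voom called 0. Rab7, a GTPase of late endosomes, had a log2 fold change of 0.39 (edgeR adjusted p = 0.161) and Npc2, a cholesterol carrier, one of -0.39 (adjusted p = 0.31).

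The annotation places 20 other genes within 100 kb of the block, 14 of them in the count table and 10 tested. Of those 10, 0 were called by edgeR, DESeq2 or limma-voom, and 1, Nlrp6, had an unadjusted p under 0.05. Nlrp6, an inflammasome sensor, had 9, 9, 21 and 14 reads in MC38 and none in either control (edgeR adjusted p = 0.16). The log2 fold changes of the other 9 ran from -0.36 for Psmd13, a proteasome subunit, to 0.48 for B4galnt4. Sigirr, an inhibitor of interleukin 1 receptor signalling, was at 52.0 ± 0.60 CPM in MC38 and 65.0 ± 11.4 CPM in control (log2 fold change -0.32, edgeR adjusted p = 0.333). Sirt3, a mitochondrial deacetylase, was at 122.4 ± 5.23 CPM in MC38 and 109.8 ± 5.87 CPM in control (0.16, adjusted p = 0.551).

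**Figure D4:**
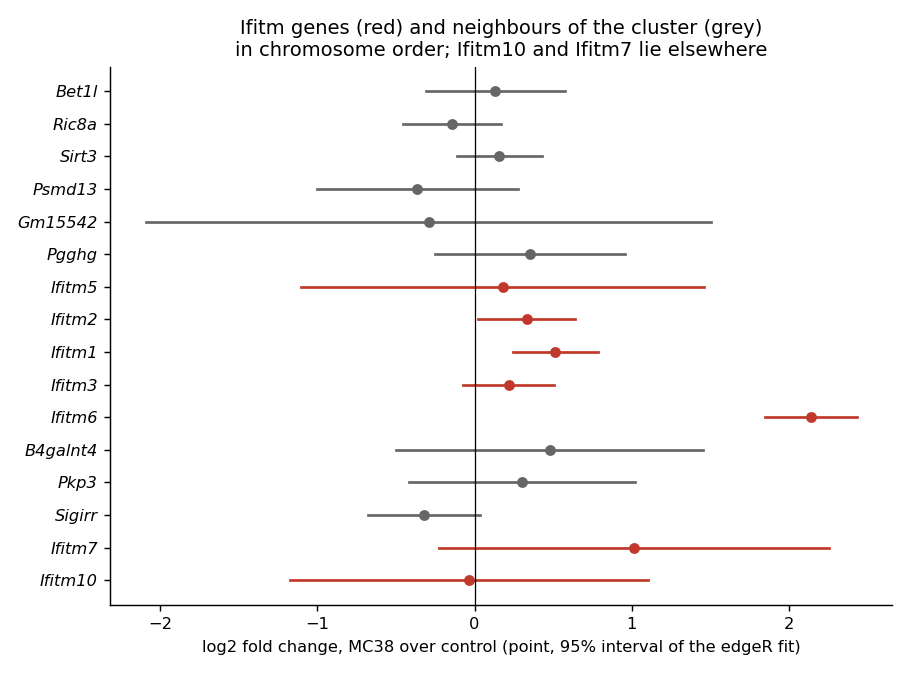
Log2 fold change of MC38 over control with its 95% interval from the edgeR fit, for Ifitm genes in red and for tested genes within 100 kb of the cluster in grey, in chromosome order from the top with Ifitm7 and Ifitm10, which lie elsewhere, last, and without Nlrp6, which had no control count. Ifitm6, at 2.14, was picked for its difference, so its drawn interval is no test. The 9 neighbours lie between -0.36 and 0.48.

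The genes whose levels moved most like those of Ifitm6 across the 6 libraries were Stfa2l1, Cd300ld, Igkv15-103, Igkv14-126, Slc16a3 and Igkv13-84. Likeness was the root mean square difference of centred log2 CPM, among 7330 genes with a mean of at least 20 CPM, and ran from 0.27 to 0.33 over these 6. All were higher in MC38, which follows from the choice. Stfa2l1, of the stefin A group of protease inhibitors, stood at 30.7, 30.6, 31.5 and 36.2 CPM in MC38, against 12.6 and 8.01 CPM in control. Cd300ld, a receptor of myeloid cells, stood at 45.8, 43.8, 45.9 and 34.2 CPM in MC38, against 12.5 and 13.7 CPM in control. Slc16a3, a lactate transporter, stood at 52.9, 56.1, 47.0 and 51.6 CPM in MC38, against 18.9 and 16.3 CPM in control. The other 3 are immunoglobulin kappa segments, whose reads may be split between near copies. Ranking by Pearson correlation, or with a minimum of 5 CPM, named 6 other genes each and shared 0 with these.

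Most markers of neutrophils were higher in MC38, as Ifitm6 was, and those of primary granules were lower. Of 22 on the list, 14 rose and 1 fell in edgeR, beside 1.04% and 0.569% of all tested genes. The median log2 fold change was 0.90. The summed level of the list was 61460 to 70270 CPM in MC38 and 35610 to 36370 CPM in control, with no marker at 0. Ngp, a secondary granule protein, had a log2 fold change of 1.16 and S100a9, a calprotectin subunit, one of 1.16 (edgeR adjusted p = 0.000345 and 0.00102). Fold changes were above 0 for 18 and below 0 for 4. Of the 22, 17 were higher and 3 lower without overlap, beside 14.0% and 15.0% of all tested genes. Mpo, a primary granule enzyme, was the one called lower (log2 fold change -0.64, edgeR adjusted p = 0.0304). Elane, Prtn3 and Ctsg, also of primary granules, had log2 fold changes of -0.31, -0.44 and -0.16 (edgeR adjusted p = 0.263, 0.173 and 0.677). Called markers numbered 15 with all 6 libraries, and leaving one out gave 10 for MC38 replicate 4, 4 for control replicate 1 and 6 for control replicate 2. With these markers left out of the library totals the log2 fold change of Ifitm6 was 2.14. TMM rescales the totals, so that fit could move other genes only a little and does not bear on neutrophil content. The part of neutrophil transcripts in the level of Ifitm6 was not tested.

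Calls by edgeR on the lists of this paragraph stand against 1.04% of all tested genes called higher and 0.569% called lower. Of 17 monocyte and macrophage markers 2 rose and 1 fell in edgeR, with a summed level of 972.6 to 1018 CPM in MC38 and 1008 to 1027 CPM in control. At an unadjusted p under 0.05 there were 10, beside 17.5% of all tested genes. DESeq2 called 6 higher and 1 lower, and limma-voom 1 each way. Without overlap 9 were higher and 2 lower, beside 14.0% and 15.0% of all tested genes. Klf4, a factor of monocytes, fell (log2 fold change -1.07, edgeR adjusted p = 0.00546). It averaged 195.3 CPM in MC38 and 409.4 CPM in control, which lowers the summed level in MC38. C1qa, a complement subunit, rose to 4.31 ± 1.04 CPM in MC38, against 0.166 ± 0.116 CPM in control (edgeR adjusted p = 0.0342). Itgam, a myeloid integrin, rose to 71.9 ± 10.4 CPM in MC38, against 30.4 ± 4.68 CPM in control (SD, n = 4 and 2, log2 fold change 1.24, edgeR adjusted p = 0.0155). Dendritic cell markers had 2 of 11 called higher, Siglech and Ccr9, and summed to 559.8 to 607.3 CPM in MC38 and 432.1 to 486.8 CPM in control. B and plasma cell markers had 2 of 15 called higher, the immunoglobulin genes Ighm and Igkc, and summed to 5303 to 6172 CPM in MC38 and 3048 to 3544 CPM in control. T and NK cell markers had 0 of 18 called by edgeR (10 at an unadjusted p under 0.05, beside 17.5% of all tested genes, 7 by DESeq2, 0 by limma-voom) and summed to 612.4 to 668.9 CPM in MC38 and 531.7 to 595.9 CPM in control. Their median log2 fold change was 0.99, with 15 above 0 and 3 below. Of the 18, 10 were higher and 1 lower without overlap, beside 14.0% and 15.0% of all tested genes. Of 10 mast cell, basophil and eosinophil markers Hdc rose and Mcpt8 and Prg2 fell, with Ms4a2 at 0. Of 14 erythroid and megakaryocyte markers 0 were called by edgeR (5 at an unadjusted p under 0.05, 1 by DESeq2, 0 by limma-voom). Fold changes of that list were below 0 for 11 and above 0 for 3, with a median of -0.32. Of the 14, 5 were lower and 1 higher without overlap, beside 15.0% and 14.0% of all tested genes. The list summed to 626.9 to 670.5 CPM in MC38 and 762.4 to 854.6 CPM in control. The part of these cell types in the levels of the Ifitm genes was not tested.

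**Figure D5:**
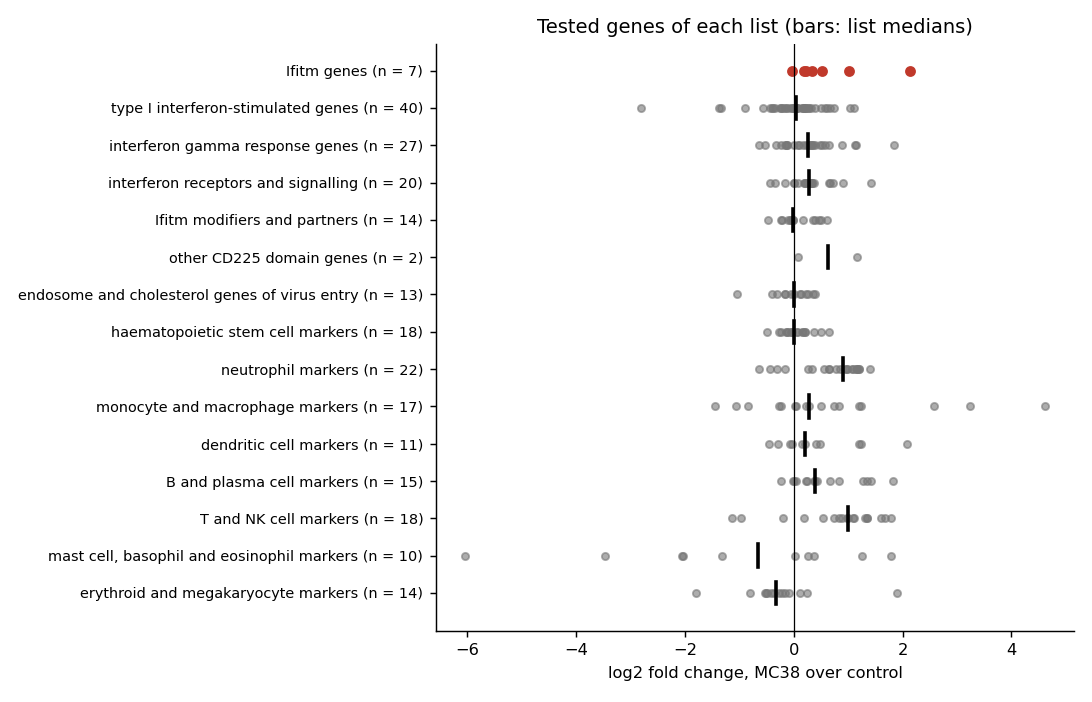
Log2 fold change of MC38 over control for every tested gene of each list (grey points, bars at list medians) and for the 7 Ifitm genes (red). The type I interferon-stimulated genes have a median of 0.04, the neutrophil markers one of 0.90 and the T and NK cell markers one of 0.99. Ifitm6 lies at 2.14.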

How the data were processed

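RNA of sorted HSCs was sequenced in 7 libraries. The authors deposited read counts per Ensembl gene, and the mm10 build, HTSeq 0.10.0, STAR 2.6.1 and Trim Galore 0.5.0 appear in the submitters' processing notes. Strand setting, filters and annotation release: not given in the sources used here. No molecular identifiers are named, so PCR copies count as reads. Symbols and exon lengths came from GENCODE mouse release 21 (GRCm38), which named 27728 of 28786 gene IDs. The comparison of 4 MC38 with 2 control libraries used edgeR 4.0.16 (TMM, filterByExpr, robust quasi-likelihood, two-sided, Benjamini-Hochberg over all 14226 genes, threshold 0.05) in R 4.3.3, and was tested on simulated data. Alternatives used DESeq2 1.42.0, limma 3.58.1 (voom), other scalings and filters, all 7 columns, a replicate block and leaving out each library. TPM were computed from the deposited counts. Ratios were tested by exact permutation. The members and the 14 gene lists were chosen with earlier results of these data known. Bst2, B2m, Mpo, Elane, Prtn3, Ctsg and Ms4a2 were named after their values were seen. Other genes named were drawn from the Ifitm genes, tested neighbours, the 3 genes of smallest p per list (up to 6 if called) and the 6 most like Ifitm6. One gene that this rule names is not reported here. The replicate numbers are shared between groups, but the labels give them no meaning, so no pairing was assumed. Same-numbered libraries deviated together with correlations of 0.07 and -0.04. These cannot decide on pairing, because the deviations of 2 controls from their mean are mirror images.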

Additional observations from a re-analysis of the deposited data

Results flagged for a closer look

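A single MC38 library stood apart from the other 3 for 3 of the 52 genes looked at in this way, where chance alone gives about 1 in 20. For Ifitm10 the low one was MC38 replicate 3, at 2.89 CPM, against 6.21 to 6.84 CPM in the others. For Ifngr1 the low one was MC38 replicate 2, at 144 CPM, against 171 to 174 CPM. For Stfa2l1 the high one was MC38 replicate 4, at 36.2 CPM, against 30.6 to 31.5 CPM.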

How the results depend on the processing

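The number of genes called, 229, was 504 without a filter on low counts, 1022 with DESeq2, 1454 with all 7 columns and 459 with the replicate block, and it ran from 60 to 442 over the fits without 1 library, lowest without control replicate 1 (60) and control replicate 2 (83), then MC38 replicate 2 (97) and MC38 replicate 4 (108), and highest without MC38 replicate 1. With 1 control left, that library is assumed to vary like the MC38 ones. The log2 fold change of Ifitm6 ran from 2.02 to 2.28 over the same fits. For Ifitm1 it ran from 0.41 to 0.63 over them, and Ifitm1 passed without MC38 replicate 3 (adjusted p = 0.0434), without a filter (log2 fold change 0.52, adjusted p = 0.0262), with DESeq2 (0.52, 0.000663), with all 7 columns (0.52, 0.00904) and with the replicate block (0.61, 0.00456). Ifitm2 passed with the replicate block alone (0.46, adjusted p = 0.022), and Ifitm3 passed in no alternative (adjusted p 0.109 to 0.769). With the block Ifitm10 turned to 0.30, within a range of -0.46 to 0.57 without 1 library, and Psmd13 to 0.0168. Leaving out 1 library gave -0.0167 to 0.34 for Ifitm5, -0.33 to 0.64 for Tmem91 and -0.0389 to 0.33 for Bet1l. The labels give the replicate numbers no shared animal, batch or day. With the block, MC38 replicates 3 and 4 have no control of their number, so its fold changes rest on replicates 1 and 2. The fit with all 7 columns counts control column 3, which is not an independent library. The cause of these moves was not tested. Leaving the neutrophil markers out was chosen after seeing the data and changed no call of an Ifitm gene. Because TMM rescales the totals, little else could change in that fit. Of the other called markers named, Ighm and Hdc passed in all 14 alternatives, Siglech in 13, Klf4 and Mcpt8 in 12, Itgam and Prg2 in 11, and Ccr9, C1qa, Igkc and Mpo in 9, with 13 alternatives for Mpo. Ifitm10 had at most 100 reads in a library, and its MC38 libraries varied by 32.5% (coefficient of variation).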
